A study of Solanum lycopersicum with 2 samples.

Results

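The transcripts described here are those of 6 ethylene receptors of tomato and of 2 proteins further along the ethylene signalling chain, CTR1 and EIN2. Other receptor genes, such as ETR7, were not analysed, so all statements on receptors below cover these 6 only. The 8 genes were taken by a fixed list of identifiers out of 25923 genes listed in at least 1 of 2 libraries, and each of them was listed in both. They are the receptors ETR1 (Solyc12g011330.2), ETR2 (Solyc07g056580.2), NR (Solyc09g075440.2), ETR4 (Solyc06g053710.2), ETR5 (Solyc11g006180.1) and ETR6 (Solyc09g089610.2), the kinase CTR1 (Solyc10g083610.1) and the membrane protein EIN2 (Solyc09g007870.2). The files give identifiers without names, so the names come from the list. RefSeq's genes for assembly SLM_r2.1 include each name (NR under its synonym ETR3) on the chromosome that the files give, for 8 of 8 genes, though none of the identifiers themselves could be matched there.

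The study compared anthers, the pollen-bearing organs, with young leaves of the tomato cultivar Moneymaker, in 1 library each. Both came from untreated plants 8 weeks old, grown in a glasshouse, and the anthers were a mixture of developmental stages. Messenger RNA was profiled by MACE, which sequences near the 3' end so that long and short transcripts should yield equal numbers of reads. Levels are therefore given as RPM, reads per 1000000 mapped reads, and were compared between genes without a length correction. The anther library held 12411606 mapped reads and the leaf library 11534512, so that 1 read was worth 0.0806 RPM for anthers and 0.0867 RPM for leaves. Below, "in anthers" and "in leaves" stand for these single libraries. To compare with the tissue labels, 9 identifiers known in tomato as genes of stamen and pollen or of leaf photosynthesis were looked up, although the files do not annotate them. They were chosen with earlier results of these data known, so they are not an independent check of the labels. The 5 stamen and pollen genes had 146 to 936 RPM in anthers and 1.47 to 11.9 RPM in leaves. The 4 photosynthesis genes had 209 to 1709 RPM in anthers and 1480 to 16047 RPM in leaves, and each was higher in leaves. Leaf photosynthesis transcripts were thus not absent from the anther library.

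Ethylene is a gaseous hormone that acts in fruit ripening, flower ageing, organ abscission and stress responses. Its receptors sit in the membrane of the endoplasmic reticulum and are negative regulators. Without the hormone they keep the Raf-like kinase CTR1 active, which phosphorylates EIN2, and when ethylene binds, this block is lifted and EIN2 passes the signal on to transcription factors in the nucleus. Receptors of subfamily I (ETR1, ETR2 and NR) have a conserved histidine kinase domain, whereas those of subfamily II (ETR4, ETR5 and ETR6) have a degenerate one.

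There are no replicates and hence no test, and every difference is one between these 2 libraries. The 95% intervals are exact Poisson or Clopper-Pearson intervals of the reads and cover counting error only, since no molecular identifiers are named and reads need not be independent molecules. The log2 ratio has a pseudocount of 1 RPM added to the anther level on top and to the leaf level below, so it understates differences between low values. Folds of single genes are ratios of RPM without that pseudocount.

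ETR4 had the largest difference between the tissues among the 8 genes. ETR4, on chromosome 6, had 479 reads or 38.6 RPM (35.2 to 42.2) in anthers, against 45 reads or 3.90 RPM (2.85 to 5.22) in leaves. That was a 9.89-fold higher level in anthers (7.28 to 13.7), and a log2 ratio of 3.01. In anthers it was the most abundant of the 6 receptor transcripts and exceeded 86.7% of the 24538 genes listed for that library. In leaves it exceeded 48.2% of the 22893 genes listed there. In tomato fruit, reduced ETR4 is known to bring ripening forward.

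ETR6, the other receptor whose reduction is known to hasten ripening, was also higher in anthers, at a much lower level. ETR6, on chromosome 9, had 43 reads or 3.46 RPM (2.51 to 4.67) in anthers, against 10 reads or 0.867 RPM (0.416 to 1.59) in leaves. The fold was 3.996 (1.98 to 8.92) and the log2 ratio 1.26, which became 0.53 with a pseudocount of 5 RPM. ETR5, on chromosome 11, had the fewest reads of the 8 genes in both libraries. It had 16 reads or 1.29 RPM (0.737 to 2.09) in anthers and 9 reads or 0.780 RPM (0.357 to 1.48) in leaves. Its ratio of 1.65 (0.687 to 4.24) spans both a lower and a higher level, so no difference was detectable at this depth.

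**Figure D1:**
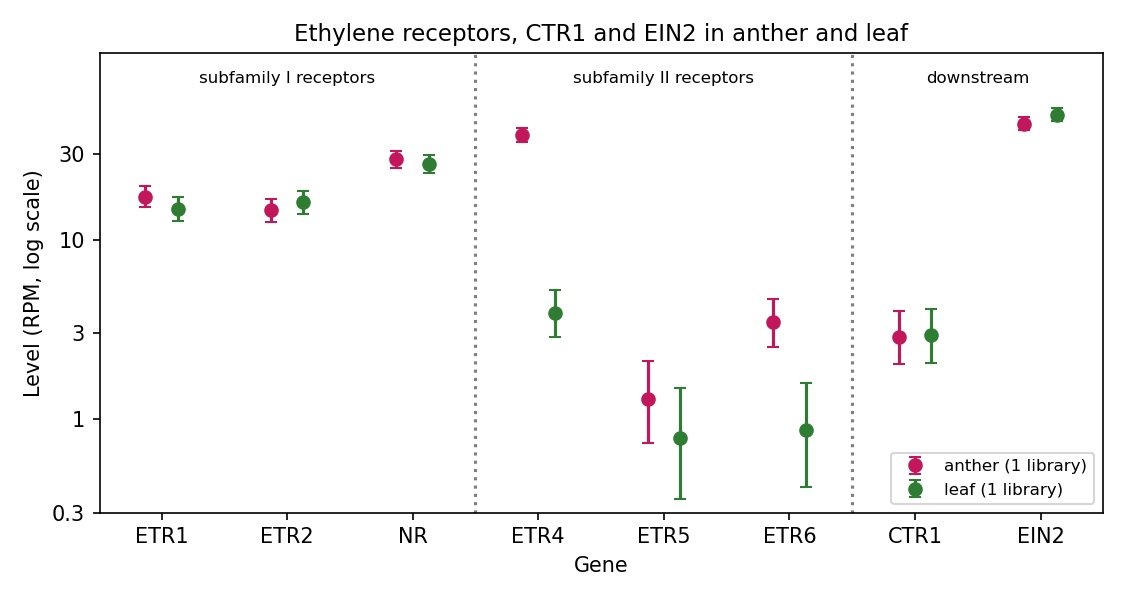
Level of each gene in RPM on a log axis, anther left and leaf right of each pair; points are single libraries and bars are exact 95% Poisson intervals of the reads. ETR4 stands at 38.6 RPM in anthers and 3.90 RPM in leaves, while the 2 points of each subfamily I receptor, of CTR1 and of EIN2 lie close together.

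The receptors of subfamily I had similar levels in both libraries. NR, on chromosome 9, is the gene of the Never-ripe locus, whose mutant fruit fails to ripen, and its protein lacks the receiver domain found in the other receptors. It had 349 reads or 28.1 RPM (25.2 to 31.2) in anthers and 305 reads or 26.4 RPM (23.6 to 29.6) in leaves, a ratio of 1.06 (0.909 to 1.24). ETR1, on chromosome 12, had 215.5 reads or 17.4 RPM (15.2 to 19.9) in anthers and 172 reads or 14.9 RPM (12.8 to 17.3) in leaves, a ratio of 1.16 (0.951 to 1.43). ETR2, on chromosome 7, had 182 reads or 14.7 RPM (12.6 to 17.0) in anthers and 187 reads or 16.2 RPM (14.0 to 18.7) in leaves, a ratio of 0.904 (0.733 to 1.12). Each of these 3 intervals includes 1 and none reaches 2, and variation between plants was not measured.

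CTR1 and EIN2, the steps after the receptors, had similar levels in both libraries. EIN2, on chromosome 9, was the most abundant of the 8 transcripts in both libraries, with 550 reads or 44.3 RPM (40.7 to 48.2) in anthers and 574 reads or 49.8 RPM (45.8 to 54.0) in leaves. Its ratio was 0.890 (0.791 to 1.003), and its log2 ratio of -0.16 stayed below 0 under each of the 4 other scalings tried but was 0.019 by peak height, a measure described below. CTR1, on chromosome 10, had few reads, with 35.5 reads or 2.86 RPM (2.03 to 4.02) in anthers and 34 reads or 2.95 RPM (2.04 to 4.12) in leaves. Its ratio of 0.970 (0.598 to 1.62) had no clear direction, and its log2 ratio of -0.03 became 0.02 when scaled to the reads on listed genes. The fractional reads of ETR1 and CTR1 in anthers are the 2 non-whole values among the 8 genes. Fractions are taken here as reads shared with another place in the genome, which the file headers do not state.

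**Figure D2:**
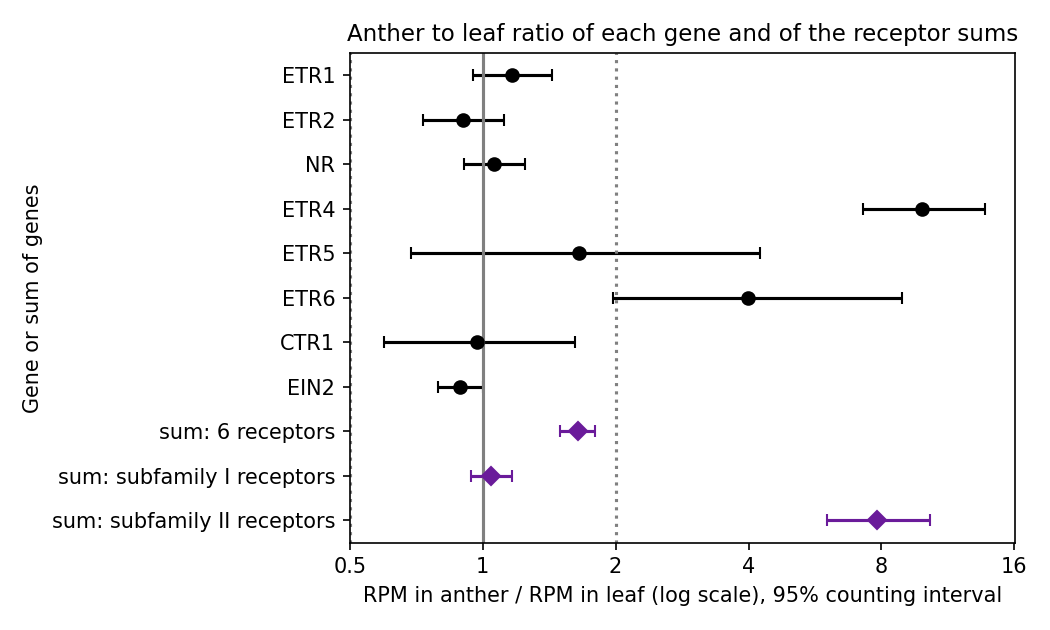
Ratio of anther RPM to leaf RPM on a log axis for each gene (circles) and for sums of receptors (diamonds), with exact 95% counting intervals; the solid line is equality and dotted lines mark 2-fold. ETR4 at 9.89 and ETR6 at 3.996 lie beyond 2-fold, and the interval of ETR6 starts at 1.98.

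ETR4 and ETR6 were the genes of the 8 that differed by 2-fold or more, both towards anthers. All 8 genes passed the filter, a mean level over both libraries of 1 RPM or more, as did 17137 genes in all, and ETR5 was barely above that limit at 1.03 RPM. Of the 17137 genes, 21.5% were higher in anthers by 2-fold or more, and 17.5% were higher in leaves by that much. Of the 8 genes, 2 (ETR4 and ETR6) were higher in anthers by 2-fold or more and 0 were higher in leaves by as much. A count of 2 of 8 is near the background share for anthers, and nothing is read from counts this small. The median log2 ratio was 0.146 over the 8 genes and 0.148 over all genes compared. The size of the ETR4 difference was less common: 842 of the 17137 genes had a log2 ratio at least as high as that of ETR4, and 5.65% of the 8041 genes averaging 10 to 100 RPM had a higher one. For ETR6, 20.6% of the 7848 genes averaging 1 to 10 RPM had a higher log2 ratio.

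**Figure D3:**
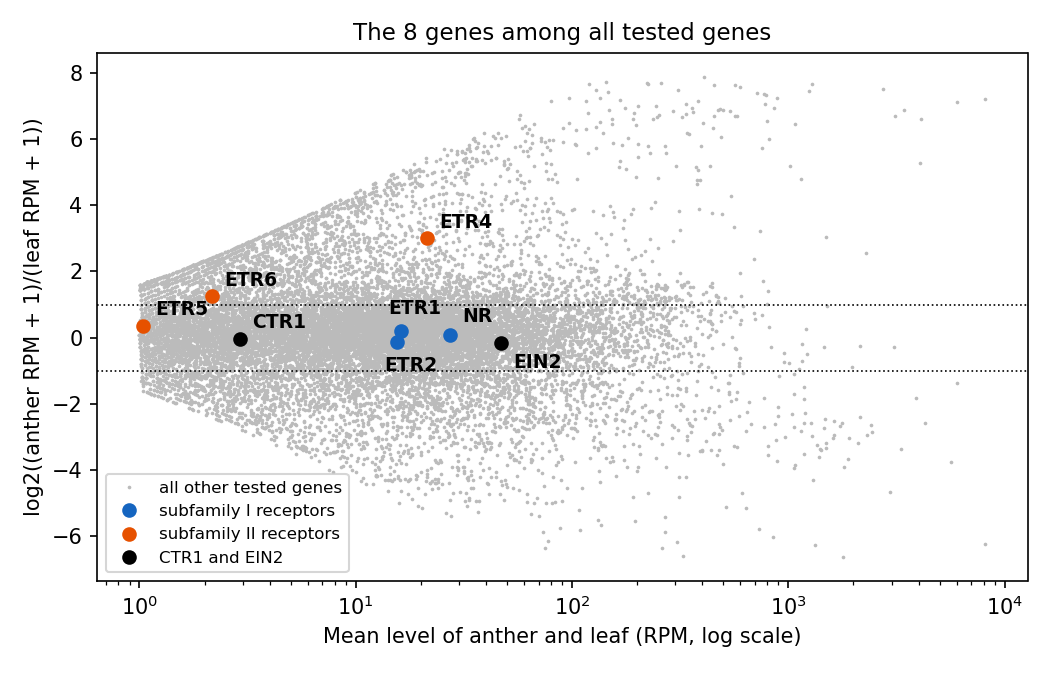
Log2 ratio of anther over leaf (with a pseudocount of 1 RPM) against the mean level in RPM on a log axis; grey points are the other genes that passed the filter, coloured points the 8 genes, and dotted lines mark 2-fold. ETR4, at 3.01, has 5.65% of the genes averaging 10 to 100 RPM above it, and 6 of the 8 genes lie between the dotted lines.

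The order of the genes by level differed between the tissues mainly in the place of ETR4. In anthers the order was EIN2, ETR4, NR, ETR1, ETR2, ETR6, CTR1 and ETR5. The neighbours ETR1 and ETR2 in this order (ratio of reads 1.18, 0.970 to 1.45) and ETR6 and CTR1 (1.21, 0.749 to 1.91) did not differ beyond counting error. In leaves the order was EIN2, NR, ETR2, ETR1, ETR4, CTR1, ETR6 and ETR5. Here ETR2 and ETR1 (1.09, 0.879 to 1.35), ETR4 and CTR1 (1.32, 0.829 to 2.13) and ETR6 and ETR5 (1.11, 0.406 to 3.09) did not differ beyond counting error. ETR4 thus stood above NR by 1.37-fold (1.19 to 1.58) in anthers, and below ETR1, which had 3.82 times its reads (2.74 to 5.43), in leaves.

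Subfamily II, mainly ETR4, made up a larger part of the receptor transcripts in anthers than in leaves. Such shares are formed within a library and do not depend on the scaling between libraries. ETR4 made up 37.3% (34.6% to 40.0%) of the 1284.5 receptor reads in anthers and 6.18% (4.54% to 8.18%) of the 728 receptor reads in leaves. NR made up 27.2% (24.7% to 29.7%) in anthers and 41.9% (38.3% to 45.6%) in leaves, ETR2 14.2% (12.3% to 16.2%) in anthers and 25.7% (22.5% to 29.0%) in leaves, and ETR1 16.8% (14.8% to 19.0%) in anthers and 23.6% (20.6% to 26.9%) in leaves. Since the levels of these 3 receptors were close in both libraries, their lower shares go with the higher ETR4 level. ETR6 made up 3.35% (2.43% to 4.48%) in anthers and 1.37% (0.661% to 2.51%) in leaves, and ETR5 1.25% (0.713% to 2.01%) in anthers and 1.24% (0.567% to 2.33%) in leaves. Subfamily I together held 58.1% (55.4% to 60.8%) of the receptor reads in anthers and 91.2% (88.9% to 93.2%) in leaves. The odds that a receptor read came from subfamily II were 7.48 times as high in anthers (5.62 to 10.04). This rests mainly on ETR4, which gave 479 of the 538 subfamily II reads in anthers and 45 of the 64 in leaves. The effective number of receptor genes, the inverse of the summed squared shares, was 3.81 in anthers and 3.32 in leaves.

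**Figure D4:**
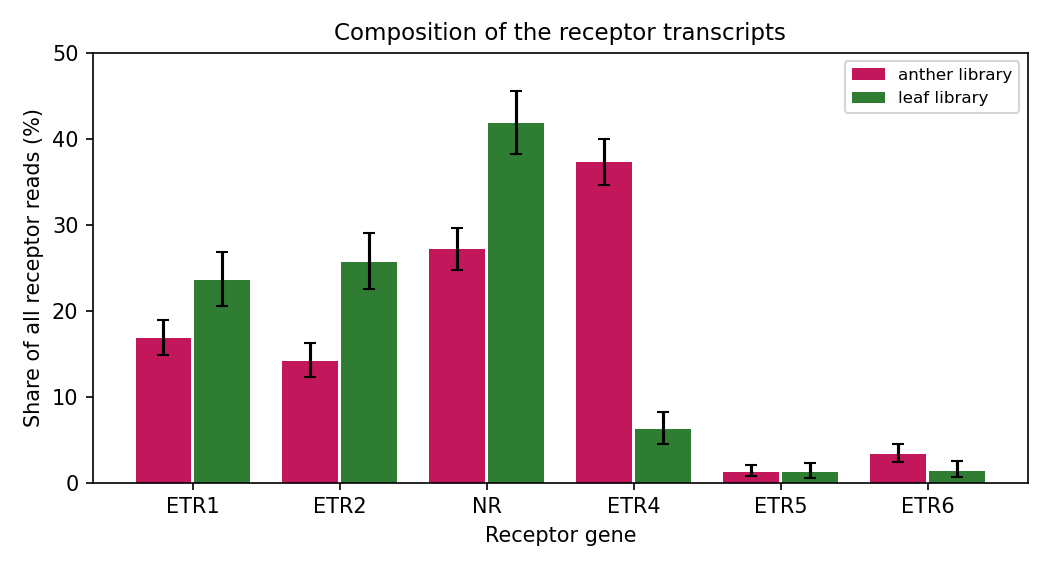
Share of each receptor gene in the summed reads of the 6 receptors in the library, in percent, with anther bars left and leaf bars right. Error bars are exact 95% binomial intervals and cover counting error only. ETR4 holds 37.3% in anthers and 6.18% in leaves, and NR 27.2% in anthers and 41.9% in leaves.

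Summed over the 6 receptors, anthers had 103 RPM and leaves 63.1 RPM, a 1.64-fold higher level in anthers (1.497 to 1.80). ETR4 alone was higher by 34.7 RPM in anthers, of a difference of 40.4 RPM in the sum. Without ETR4, a choice made after its value was seen, the other 5 receptors summed to 64.9 RPM in anthers and 59.2 RPM in leaves, a ratio of 1.10 (0.989 to 1.22). The 3 receptors of subfamily I summed to 60.1 RPM in anthers and 57.6 RPM in leaves (ratio 1.04, 0.940 to 1.16), and those of subfamily II to 43.3 RPM in anthers and 5.55 RPM in leaves (ratio 7.81, 6.02 to 10.3). In RNA of whole organs, more cells of a type and more RNA per cell cannot be told apart, and the part that the cell make-up of anthers and leaves plays in the ETR4 difference was not tested.

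The transcripts of the 6 receptors were also set against those of CTR1 and of EIN2 within each library. Other kinases of the CTR type, such as CTR3, were not analysed, so the values per CTR1 read concern that gene alone. There were 2.34 receptor reads per EIN2 read (2.11 to 2.59) in anthers and 1.27 (1.14 to 1.42) in leaves, so the value was 1.84 times as high in anthers (1.58 to 2.14). Per CTR1 read there were 36.2 receptor reads (25.6 to 51.2) in anthers and 21.4 (15.2 to 31.2) in leaves, and CTR1 rests on few reads, so that the ratio of these, 1.69, had an interval of 1.002 to 2.77. For subfamily I alone the values per EIN2 read were 1.36 (1.21 to 1.52) in anthers and 1.16 (1.03 to 1.30) in leaves. For subfamily II they were 0.978 (0.867 to 1.10) in anthers and 0.111 (0.0847 to 0.145) in leaves, so that subfamily II and EIN2 reads were about equally frequent in anthers. By peak height, a measure described below, they were not. Anther peaks were 95 for ETR4, 9 for ETR5 and 9 for ETR6, against 215.5 for EIN2. EIN2 reads per CTR1 read differed little, with 15.5 (10.9 to 22.0) in anthers and 16.9 (11.9 to 24.6) in leaves.

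All 28 pairs of the 8 genes were compared by the ratio of their anther to leaf ratios, which is also free of the scaling. The intervals were not adjusted for the number of pairs, and pairs share genes. The interval lay above 1 for 13 pairs. These were each of the 7 pairs with ETR4, 5 of the 6 further pairs with ETR6, and 1 of the 15 pairs without either. The ETR4 ratio was 9.30 times that of NR (6.55 to 13.4), 11.1 times that of EIN2 (7.96 to 15.8), 5.99 times that of ETR5 (2.19 to 15.3) and 2.48 times that of ETR6 (1.04 to 5.43). The ETR6 ratio was 2.42 times that of ETR5, with an interval of 0.717 to 7.98. The pair without either gene was ETR1 and EIN2, with the ETR1 ratio 1.31 times that of EIN2 (1.03 to 1.66). This difference was not seen by peak height, where the log2 ratio was 0.016 for ETR1 and 0.019 for EIN2.

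The files also give the height of the highest read peak of each gene, whose computation is not stated. Over the 7837 genes that had 100 or more reads in each library, peak height was a median 25.1% of the gene's reads in anthers and 25.1% in leaves. EIN2 had a peak of 215.5 or 39.2% of its reads in anthers and of 197.5 or 34.4% in leaves, above the upper quartile of all these genes in both (28.9% in each). The subfamily I receptors had 22.3% to 23.1% in anthers and 22.3% to 25.6% in leaves, where the lower quartile of all these genes was 22.4% in each. ETR1 in anthers and NR in leaves lay just below it. ETR4 had a peak of 95 in anthers, 19.8% of its reads, and 12 in leaves, 26.7% of its 45 reads. By peak height in place of reads, the log2 ratio was 2.08 for ETR4 and 0.45 for ETR6, the latter below the limit of 1. Peak heights are lower than reads, so the same pseudocount of 1 RPM shrinks their log2 ratios more. ETR6 had peaks of 9 in anthers and 3 in leaves, which without a pseudocount are more than 2-fold apart.

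The 8 genes lie on 6 chromosomes, and NR, ETR6 and EIN2 share chromosome 9. Along the identifier numbers, which follow the chromosome, the 5 listed genes on each side of the 8 genes included 57 that passed the filter. Of these, 13 (22.8%) were 2-fold or more higher in anthers and 14 (24.6%) in leaves, against 21.5% of all genes for anthers and 17.5% for leaves. Around ETR4, 4 of the 6 such neighbours were 2-fold or more higher in anthers and 0 in leaves. Around EIN2, 1 of 8 was higher in anthers and 4 in leaves, and around ETR6, 3 of 9 were higher in anthers and 2 in leaves, by the same limit.

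The gene most like NR, the receptor with the highest mean level, over the 2 libraries was Solyc04g072810.2, with 28.4 RPM in anthers and 26.6 RPM in leaves. The next was Solyc06g064830.2, with 28.1 RPM in anthers and 26.9 RPM in leaves. Likeness was the distance in log2(RPM + 1) in the plane of both levels, 0.015 and 0.023 for these genes. It sets few genes apart, since 42 genes lay within 0.1 and 930 within 0.5 of NR.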

How the data were processed

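Per the file headers, each deposited file lists per gene the chromosome, strand, identifier, reads (called all hits, estimated counts since some are fractional), mapped reads, the highest peak and a scaled value. The scaled value deposited by the authors is named for transcripts per the file headers but equals reads per 1000000 mapped reads (RPM), with no length correction. The peak height is a signal deposited by the authors without a stated computation. FastQC is named per the submitters' processing notes. The aligner, counter, genome build and annotation release are not given in any source used here.

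The 8 genes and the marker identifiers were chosen with earlier results of these data known. Further ethylene signalling genes, among them the receptor ETR7 and the kinase CTR3, were not analysed here. The files and the reference table do not annotate their identifiers. No sequences were used here. Genes absent from a file counted as 0 there. Genes averaging 1 RPM or more were compared, and an absolute log2 ratio of 1 or more is called 2-fold. For intervals, reads were rounded to whole numbers. Ratios used exact conditional intervals, shares Clopper-Pearson intervals and odds ratios Fisher's conditional interval (scipy 1.17.1). TMM factors came from edgeR 4.0.16. All 8 genes are named, with the 2 genes nearest to the receptor of highest mean level. Alternatives were other pseudocounts, filters, thresholds, scalings and peak height, and the ratio computation was tested on simulated data.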

Additional observations from a re-analysis of the deposited data

How the results depend on the processing

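ETR4 was 2-fold or more higher in anthers under each of the 7 alternatives to its log2 ratio of 3.01 (2.08 to 3.27), with 2.29 at a pseudocount of 5 RPM and 2.08 by peak height. ETR6 ranged from 0.45 to 1.88, below 1 under the same 2 settings. EIN2 moved from -0.16 to 0.019 by peak height. NR turned from 0.09 to -0.06 with the median ratio set to 1 and -0.05 with TMM scaling, which shifted the median of all genes by -0.12. The log2 ratio of the receptor sum, 0.70, was 0.56 with the median ratio set to 1, 0.57 with TMM scaling, 0.51 by peak height and 0.13 without ETR4, the last added after the values were seen. The count of 2 genes at least 2-fold apart became 1 with a pseudocount of 5 RPM, by peak height, at a mean of at least 10 RPM and at a log2 ratio threshold of 2. By peak height the anther shares were 33.6% for ETR4 and 3.18% for ETR5, the leaf shares were 37.6% for NR, 3.87% for ETR5 and 87.8% for subfamily I, and receptors per EIN2 were 1.31 in anthers and 0.916 in leaves. The pseudocount of 1 RPM was also added to peak heights, which are lower than reads, so it shrinks their log2 ratios more. Without a pseudocount, 13 of the 28 pairs were at least 2-fold apart by reads and 13 by peak height. What else moved the values was not tested. Of 93 recomputed values, 75 moved from the reported value by less than its counting interval extends on that side or, for counts, by less than 1.5 times. The log2 ratios given for ETR6 and NR are among these 75, but the leaf share of NR by peak height is not. With 1 library per tissue, leaving out a replicate was not an option. No paired analysis was possible for the same reason. Depth limits ETR5, ETR6 and CTR1, which had 9 to 43 reads.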
